A study of Mus musculus with 18 samples.

Results

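The genes of the circadian clock and Nfil3 were followed in liver cells of mice with a ligated bile duct. The set holds 10 of the 54532 genes of the deposited table: Arntl and Clock, Per1, Per2, Per3 and Cry1, Nr1d1 and Nr1d2, and Dbp and Nfil3. They were selected by name, from a list drawn up with earlier results of these libraries in view. Which values led to the choice is not recorded, so the differences after ligation are given as a description, and the counts of genes past a threshold are not read as a result about the set.

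Polyadenylated RNA was sequenced from 3 preparations of mouse liver cells, each after bile duct ligation (BDL), an operation that blocks the outflow of bile, and after a sham operation (Sham). MPH were primary hepatocytes, BECs were the epithelial cells of the bile ducts, and Kupffer-like cells is the labels' name for a preparation of liver macrophages. Each of the 6 groups had 3 libraries, numbered 1 to 3 within the group in the order of the deposit. The strain, the age of the mice, the time since the operation and the hour of collection were not given in the sources used here. No label says that the libraries of a group came from different mice. By their Y-linked transcripts each of the 6 groups held male and female libraries, so each came from more than 1 mouse. Whether all 3 libraries of a group came from different mice is not known. A p-value therefore covers the spread among these libraries, which may be partly technical.

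The hepatocyte and biliary markers were highest in their own preparations, while Kupffer cell markers were also high in hepatocytes. In Sham livers the summed FPKM of 8 hepatocyte markers was 38210 to 106200 in MPH, that of 7 biliary markers was 3431 to 3892 in BECs, and that of 8 Kupffer cell markers was 5582 to 6755 in Kupffer-like cells. The Kupffer cell markers also summed to 1652 to 6702 FPKM in MPH Sham libraries, which overlaps the range in Kupffer-like cells. In bulk RNA, fewer cells of a type and less RNA per cell cannot be told apart. About 15451633 to 20577889 reads per library were recovered in genes from the deposited values. Among the clock genes the reads behind a value were fewest for Dbp, at 15 to 415 reads, and for Per3, at 23 to 166 reads.

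The clock is a transcriptional loop. ARNTL (also called BMAL1) pairs with CLOCK and binds E-boxes to switch on the Per and Cry genes, whose proteins return to the nucleus and inhibit the pair. The same pair drives Nr1d1 and Nr1d2, which encode REV-ERB repressors of Arntl and Nfil3 at ROR elements, and Dbp, an activator at D-boxes where NFIL3 acts as a repressor. In liver this loop times much of metabolism, and the Arntl and Dbp transcripts peak at roughly opposite times of day.

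The DNA elements of the loop were looked for just upstream of the members, in the 250 bases before a transcript start annotated by RefSeq on GRCm38.p6. Windows were held for 9 of the 10 members, 13 windows in all, and Per2 was not matched. The E-box CACGTG, which is its own reverse complement, stood in windows of Per1 and Cry1. The D-box TTANGTAA, read on both strands, stood at 2 places in Per3. The ROR element core TAGGTCA, read on both strands, stood in the window of Nfil3. Of 32817 windows of the genome, 6.02% held this E-box, 2.06% this D-box and 2.24% this ROR core. A match is a match of letters, and a window with none says nothing about the factor.

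The 4 windows with a match are printed 5′ to 3′ on the gene's own strand, with the matched letters in capitals. The Per1 window lies at chr11:69098699-69098948 on the plus strand, within the annotated Per1 gene, and its E-box begins 166 bases before the start.
Per1: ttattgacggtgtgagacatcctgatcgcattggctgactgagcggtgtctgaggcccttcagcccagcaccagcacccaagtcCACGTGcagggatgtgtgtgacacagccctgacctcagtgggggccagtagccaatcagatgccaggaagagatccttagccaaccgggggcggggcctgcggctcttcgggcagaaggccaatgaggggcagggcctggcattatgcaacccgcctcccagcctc
The Cry1 window lies at chr10:85185055-85185304 on the minus strand, and its E-box begins 60 bases before the start.
Cry1: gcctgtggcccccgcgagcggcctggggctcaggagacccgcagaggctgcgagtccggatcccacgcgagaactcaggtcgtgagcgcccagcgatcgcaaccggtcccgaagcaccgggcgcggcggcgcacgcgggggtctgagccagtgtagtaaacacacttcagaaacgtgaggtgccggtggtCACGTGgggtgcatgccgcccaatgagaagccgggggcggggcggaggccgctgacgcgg
The Per3 window lies at chr4:151044666-151044915 on the minus strand, within the span of the neighbouring gene Camta1, and its D-boxes begin 205 and 158 bases before the start.
Per3: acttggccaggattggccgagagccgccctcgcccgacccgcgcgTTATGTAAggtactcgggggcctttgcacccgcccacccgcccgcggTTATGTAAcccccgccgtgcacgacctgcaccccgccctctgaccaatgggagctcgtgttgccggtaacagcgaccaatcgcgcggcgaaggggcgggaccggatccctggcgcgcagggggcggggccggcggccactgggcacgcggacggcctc
Of Nfil3 the last 30 bases before the start are shown, chr13:52981040-52981069 on the minus strand, where the ROR core begins 12 bases before the start and lies on the opposite strand. GENCODE M21 starts Nfil3 further upstream and counts these bases as exon.
Nfil3: tagcgcggcgctcggaacTGACCTActaac

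Arntl, the activating partner of the loop, lies at chr7:113207465-113314126 on the plus strand of GRCm38. In the deposited FPKM it was lower in every BDL library than in every Sham library of the same preparation. It was at 5.40, 1.29 and 3.95 FPKM in MPH BDL libraries, against 5.67, 5.72 and 7.40 FPKM in MPH Sham libraries. It was at 3.56, 3.74 and 3.14 FPKM in BECs BDL libraries, against 6.39, 6.07 and 5.62 FPKM in BECs Sham libraries. It was at 2.47, 2.70 and 3.41 FPKM in Kupffer BDL libraries, against 5.08, 4.43 and 4.40 FPKM in Kupffer Sham libraries. The groups did not overlap in any of the 3 preparations, and the margin was narrow in MPH, where BDL 1 lay just under Sham 1. That separation in MPH depends on the scaling. Arntl had 510 recovered reads in MPH BDL 1, of 17186601 in genes, and 481 in MPH Sham 3, of 16727479 in genes. Per recovered read MPH BDL 1 thus lay above MPH Sham 3. The ratio of the BDL mean to the Sham mean was 0.566 for MPH, 0.578 for BECs and 0.617 for Kupffer-like cells.

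The limma test over all genes called the fall of Arntl in BECs, with a log2 fold change of -0.65 (SE 0.12) on the log2(FPKM + 1) scale and an adjusted p of 0.0272. Over the alternatives that call had adjusted p of 0.0262 to 0.174 in limma, and it held in 7 of 16. The sexes differed between the groups, with 1 male and 2 female BECs BDL libraries and 2 male and 1 female BECs Sham libraries. With sex in the model the log2 fold change was -0.62 and the call was lost (limma adjusted p = 0.0525). In Kupffer-like cells the log2 fold change was -0.55 (SE 0.14, limma adjusted p = 0.0853), and in MPH it was -0.79 (SE 0.38, limma adjusted p = 0.273). Without MPH BDL 2, which had the lowest Arntl of all 18 libraries, the value in MPH was -0.36. In the BECs libraries other cell types moved as well: 7 neutrophil markers summed to 298 to 455 FPKM in BDL libraries and to 32.4 to 110 FPKM in Sham libraries, and 8 hepatocyte markers to 174 to 606 FPKM in BDL libraries and to 1442 to 3554 FPKM in Sham libraries. The 5 monocyte markers summed to 53.4 to 207 FPKM in BDL libraries and to 8.49 to 19.9 FPKM in Sham libraries, and 7 sinusoidal endothelial markers to 43.1 to 63.5 FPKM in BDL libraries and to 110 to 168 FPKM in Sham libraries. Their part in the fall of Arntl was not tested.

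Clock, whose protein is the partner of ARNTL, had overlapping groups in every preparation. It was at 5.28, 4.49 and 6.03 FPKM in MPH BDL libraries, against 3.98, 5.08 and 8.53 FPKM in MPH Sham libraries. The group means of Clock were between 4.13 and 5.86 FPKM in all 6 groups, and each group overlapped its neighbour in that order. On the log2 scale the change was -0.08 in MPH (SE 0.27), -0.05 in BECs (SE 0.21) and -0.01 in Kupffer-like cells (SE 0.14). Npas2, which can take the place of Clock beside ARNTL, fell in BECs to 3.72 ± 0.25 FPKM in BDL libraries, against 6.27 ± 0.65 FPKM in Sham libraries (SD, n = 3 each), with a limma adjusted p of 0.0333.

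**Figure D1:**
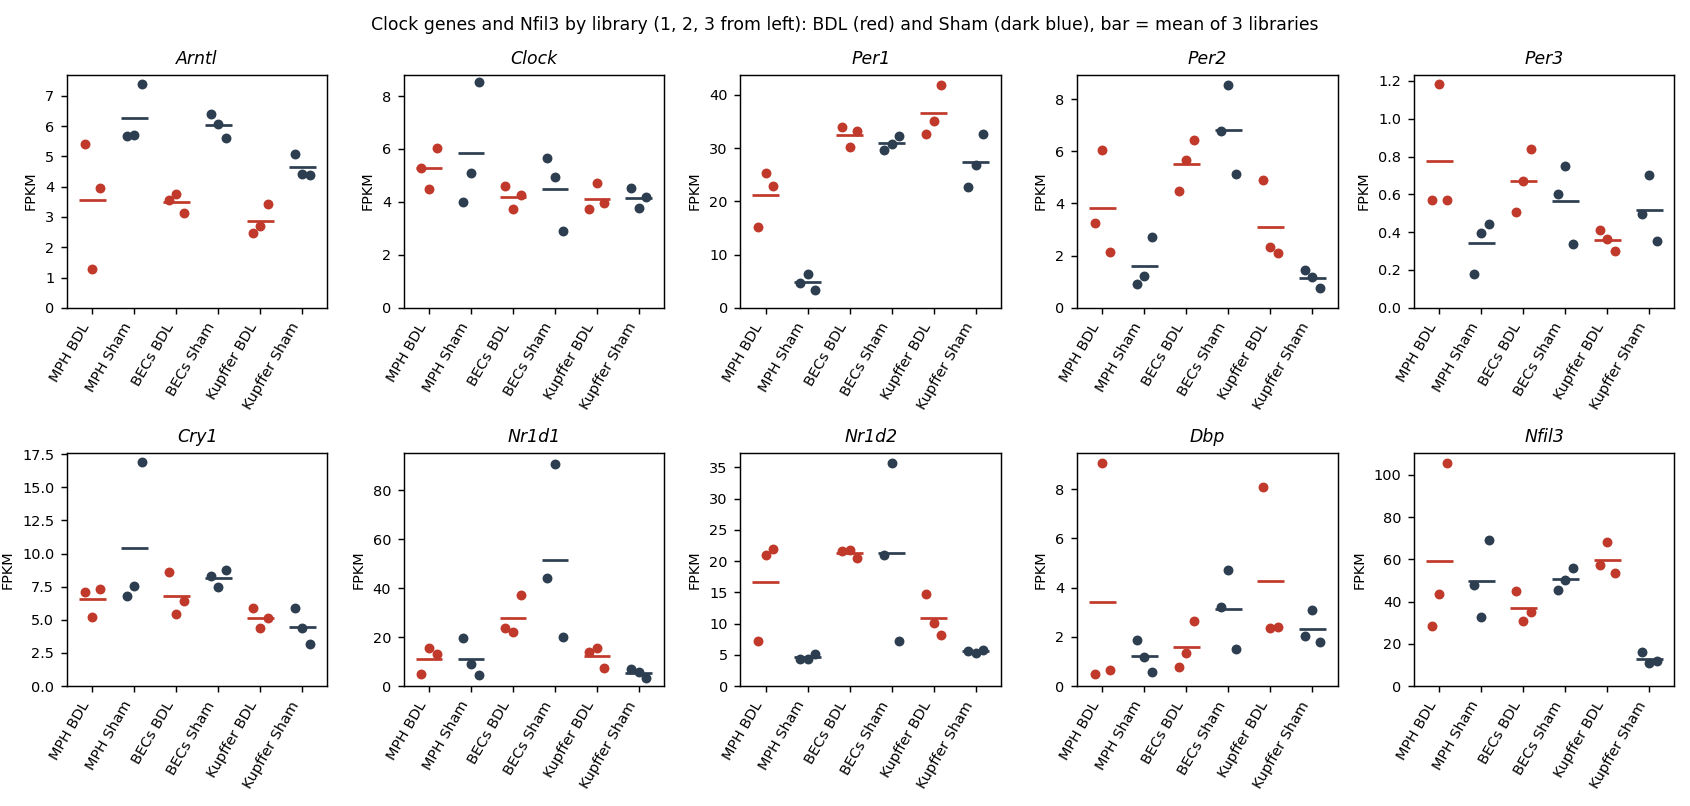
FPKM of the 10 genes (vertical axes, linear, from 0) in the 3 libraries of each of the 6 groups, with BDL in red, Sham in dark blue and a bar at the group mean. Per1 in MPH and Nfil3 in Kupffer-like cells stand clear of their Sham libraries, and Arntl is lower in BDL libraries of all 3 preparations.

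Per1, an inhibitor of the loop that also answers to glucocorticoids and other acute signals, rose after ligation in MPH. It was at 15.2, 25.2 and 22.9 FPKM in MPH BDL libraries, against 4.59, 6.38 and 3.41 FPKM in MPH Sham libraries. All BDL libraries lay above all Sham libraries, and the ratio of the means was 4.40. Per1 lies at chr11:69095217-69109960 on the plus strand of GRCm38. The log2 fold change was 1.93 (SE 0.28, limma adjusted p = 0.0313), and over the alternatives the limma adjusted p was 8.85e-05 to 0.177.

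That call was made in 8 of 17 alternatives. Leaving out MPH BDL 2 gave a log2 fold change of 1.79 with a limma adjusted p of 0.177, when 8 genes in all passed the threshold. In all 6 fits that left out 1 library the log2 fold change of Per1 was 1.75 to 2.14. Kupffer cell markers summed to 1256 to 4528 FPKM in MPH BDL libraries and to 1652 to 6702 FPKM in MPH Sham libraries. The 5 monocyte markers summed to 69.9 to 161 FPKM in MPH BDL libraries and to 9.61 to 17.5 FPKM in MPH Sham libraries. The 7 biliary markers summed to 70.4 to 74.6 FPKM in MPH BDL libraries and to 26.0 to 51.9 FPKM in MPH Sham libraries, with Krt7 called as higher. The 5 stellate cell markers summed to 136 to 198 FPKM in MPH BDL libraries and to 39.4 to 99.3 FPKM in MPH Sham libraries. Per1 itself averaged 30.9 FPKM in BECs Sham libraries, and the part of these cells in the rise of Per1 in MPH was not tested.

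In the other preparations Per1 was high with or without ligation. It was at 33.9, 30.1 and 33.2 FPKM in BECs BDL libraries, against 29.7, 30.7 and 32.3 FPKM in BECs Sham libraries, and the groups overlapped. It was at 32.7, 35.1 and 41.9 FPKM in Kupffer BDL libraries, against 22.7, 26.9 and 32.6 FPKM in Kupffer Sham libraries, so the groups touched without overlapping. The change on the log2 scale was 0.07 in BECs (SE 0.12, limma adjusted p = 0.773) and 0.41 in Kupffer-like cells (SE 0.19, limma adjusted p = 0.240).

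Per2, a second inhibitor of the loop, had higher means in BDL libraries of MPH and Kupffer-like cells without passing the test. It was at 3.25, 6.05 and 2.15 FPKM in MPH BDL libraries, against 0.899, 1.22 and 2.71 FPKM in MPH Sham libraries, and the groups overlapped. It was at 4.90, 2.34 and 2.09 FPKM in Kupffer BDL libraries, against 1.47, 1.18 and 0.760 FPKM in Kupffer Sham libraries, with no overlap. The log2 fold changes of 0.87 in MPH (SE 0.37) and 0.89 in Kupffer-like cells (SE 0.29) had limma adjusted p of 0.232 and 0.136. In BECs Per2 was at 4.47 to 6.43 FPKM in BDL libraries and at 5.14 to 8.55 FPKM in Sham libraries.

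Per3, the third period gene, reached 1 FPKM in fewer than 3 libraries of each fit and was not tested. It was at 0.572, 1.18 and 0.572 FPKM in MPH BDL libraries, against 0.180, 0.396 and 0.446 FPKM in MPH Sham libraries, and the groups did not overlap. In BECs it was at 0.506 to 0.840 FPKM in BDL libraries and at 0.337 to 0.748 FPKM in Sham libraries. In Kupffer-like cells it was at 0.300 to 0.413 FPKM in BDL libraries and at 0.355 to 0.704 FPKM in Sham libraries.

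Cry1, the cryptochrome that acts with the PER proteins, did not pass the test in any preparation. It was at 7.08, 5.19 and 7.34 FPKM in MPH BDL libraries, against 6.80, 7.59 and 16.9 FPKM in MPH Sham libraries. The high mean of MPH Sham rested on Sham 3, the library with the largest sum of deposited FPKM, 834579. In recovered reads Cry1 was at 302, 320 and 488 in MPH Sham 1, 2 and 3. The log2 fold change was -0.51 in MPH (SE 0.34), -0.25 in BECs (SE 0.17) and 0.18 in Kupffer-like cells (SE 0.22), and the groups overlapped in each.

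Nr1d2, which encodes the repressor REV-ERB beta, was higher in every BDL library than in every Sham library of MPH and of Kupffer-like cells. It was at 7.17, 21.0 and 22.0 FPKM in MPH BDL libraries, against 4.39, 4.29 and 5.09 FPKM in MPH Sham libraries. It was at 14.8, 10.0 and 8.12 FPKM in Kupffer BDL libraries, against 5.70, 5.34 and 5.76 FPKM in Kupffer Sham libraries. The Sham libraries of both preparations lay close together, while MPH BDL 1 stayed nearest to them. Neither difference passed the threshold: the log2 fold change was 1.52 in MPH (SE 0.40, limma adjusted p = 0.0980) and 0.82 in Kupffer-like cells (SE 0.21, limma adjusted p = 0.0856).

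Nr1d1, which encodes REV-ERB alpha, had overlapping groups in MPH and separate ones in Kupffer-like cells. It was at 5.05, 15.5 and 13.2 FPKM in MPH BDL libraries, against 19.8, 9.06 and 4.36 FPKM in MPH Sham libraries, with the highest value in Sham 1. It was at 14.1, 15.6 and 7.29 FPKM in Kupffer BDL libraries, against 6.84, 5.75 and 3.25 FPKM in Kupffer Sham libraries, with no overlap. The log2 fold change of Nr1d1 was 0.11 in MPH (SE 0.57) and 1.07 in Kupffer-like cells (SE 0.35, limma adjusted p = 0.137).

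In BECs the spread of both REV-ERB genes lay mostly among the Sham libraries. Nr1d1 was at 23.6, 22.0 and 37.3 FPKM in BECs BDL libraries, against 44.2, 90.9 and 19.9 FPKM in BECs Sham libraries. Nr1d2 was at 21.6, 21.7 and 20.4 FPKM in BECs BDL libraries, against 20.9, 35.8 and 7.23 FPKM in BECs Sham libraries. BECs Sham 3 was the lowest of all 6 libraries for both genes and Sham 2 the highest. By their Y-linked transcripts BECs Sham 1 and 2 were male and Sham 3 was female, while BDL 1 was male and BDL 2 and 3 were female. In MPH and in Kupffer-like cells the BDL and Sham groups held the same number of each sex. The log2 fold change of Nr1d1 in BECs was -0.67 (SE 0.53) without sex in the model and -0.44 with it, and neither passed the threshold.

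Dbp, the D-box activator and a direct output of the loop, was spread more widely within groups than between them. It was at 0.506, 9.05 and 0.654 FPKM in MPH BDL libraries, against 1.86, 1.19 and 0.580 FPKM in MPH Sham libraries. It was at 8.08, 2.36 and 2.39 FPKM in Kupffer BDL libraries, against 2.02, 3.10 and 1.78 FPKM in Kupffer Sham libraries. In each preparation 1 BDL library stood far above the rest, MPH BDL 2 and Kupffer BDL 1. In BECs Dbp was at 0.766, 1.34 and 2.65 FPKM in BDL libraries, against 3.21, 4.71 and 1.52 FPKM in Sham libraries. The log2 fold change was 0.45 in MPH (SE 0.72), -0.67 in BECs (SE 0.37) and 0.53 in Kupffer-like cells (SE 0.42), and none passed the threshold.

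Nfil3, the D-box repressor and a cytokine-responsive factor of immune cells, encoded at chr13:52967209-52981073 on the minus strand of GRCm38, rose in Kupffer-like cells. It was at 57.1, 68.1 and 53.6 FPKM in Kupffer BDL libraries, against 16.2, 11.1 and 11.8 FPKM in Kupffer Sham libraries. The lowest BDL library was above the highest Sham library, and the ratio of the means was 4.57. Its log2 fold change was 2.12 (SE 0.19, limma adjusted p = 0.0208), and over the alternatives the limma adjusted p was 0.00435 to 0.144.

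The call was made in 11 of 17 alternatives, and the log2 fold change was 2.02 to 2.28 when 1 library was left out. Without Kupffer Sham 1, Sham 2, Sham 3 or BDL 2 no gene of the table passed the threshold, while without Kupffer BDL 3 2272 genes did. With sex as a covariate the value was 2.12 with a limma adjusted p of 0.05005, and 1 gene of the table was called.

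The make-up of the Kupffer-like preparations differed between the same libraries. The 7 neutrophil markers summed to 826 to 2291 FPKM in BDL libraries and to 290 to 300 FPKM in Sham libraries, and none of them was at 0. The 5 monocyte markers summed to 373 to 445 FPKM in BDL libraries and to 98.3 to 321 FPKM in Sham libraries. The 7 sinusoidal endothelial markers summed to 317 to 778 FPKM in BDL libraries and to 1200 to 1489 FPKM in Sham libraries. The 8 hepatocyte markers summed to 1117 to 3570 FPKM in BDL libraries and to 437 to 951 FPKM in Sham libraries, and all 8 had positive log2 fold changes with a median of 1.70, none of them called. Nfil3 itself averaged 49.9 FPKM in MPH Sham libraries, against 13.0 FPKM in Kupffer Sham libraries. The 5 stellate cell markers summed to 72.6 to 160 FPKM in BDL libraries and to 26.8 to 51.0 FPKM in Sham libraries, and the 5 B cell markers to 22.4 to 110 FPKM in BDL libraries and to 168 to 209 FPKM in Sham libraries. Kupffer BDL 3 had the most neutrophil marker signal, 2291 FPKM, and the least Kupffer cell marker signal, 2085 FPKM, and its Nfil3 was at 53.6 FPKM. The part of these other cells in the Nfil3 difference was not tested.

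Nfil3 was abundant in MPH and BECs after either operation and did not pass the test there. It was at 28.3, 43.7 and 106 FPKM in MPH BDL libraries, against 47.6, 32.8 and 69.2 FPKM in MPH Sham libraries, and the groups overlapped. It was at 44.9, 30.8 and 34.9 FPKM in BECs BDL libraries, against 45.5, 50.2 and 55.8 FPKM in BECs Sham libraries, without overlap. The log2 fold change was 0.09 in MPH (SE 0.51, limma adjusted p = 0.936) and -0.46 in BECs (SE 0.18, limma adjusted p = 0.165).

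**Figure D2:**
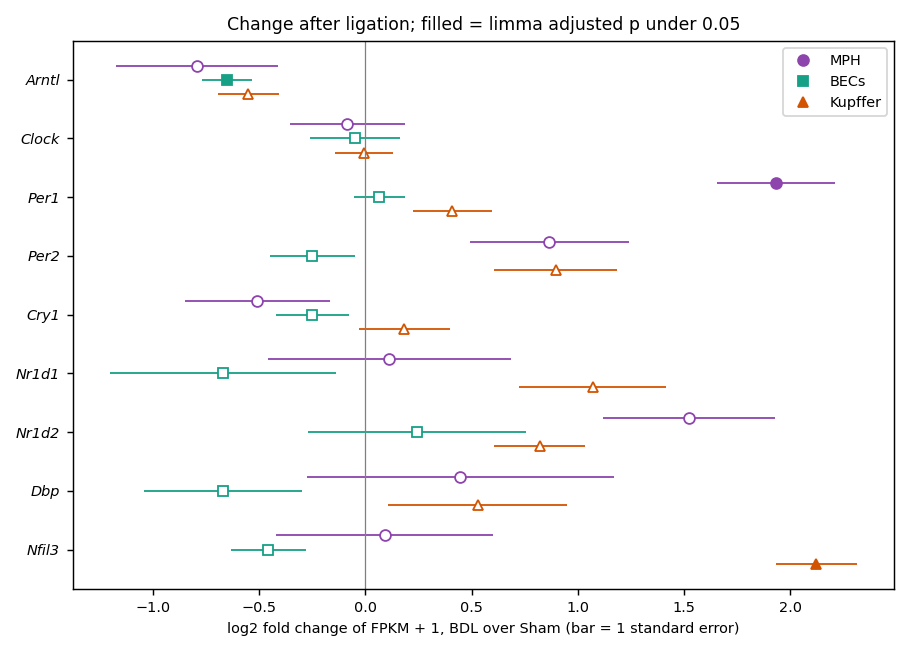
Log2 fold change of FPKM + 1, BDL over Sham (horizontal axis), for the 9 tested genes in MPH (circles), BECs (squares) and Kupffer-like cells (triangles), with bars of 1 standard error and filled symbols where the limma adjusted p was under 0.05. The 3 filled symbols are Per1 in MPH at 1.93, Arntl in BECs at -0.65 and Nfil3 in Kupffer-like cells at 2.12.

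Counted over the set, 1 of the 9 tested genes passed the threshold in each preparation. In MPH it was Per1, where 1.57% of the 12323 genes tested were called, 0.714% higher and 0.860% lower. In BECs it was Arntl, where 7.66% of 13573 genes were called, 2.96% higher and 4.70% lower. In Kupffer-like cells it was Nfil3, where 3.88% of 12748 genes were called, 1.47% higher and 2.40% lower.

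In the deposited FPKM, 3 of the 9 genes had groups that did not overlap in MPH (Arntl, Per1 and Nr1d2) and 2 in BECs (Arntl and Nfil3). In Kupffer-like cells there were 6, namely Arntl, Per1, Per2, Nr1d1, Nr1d2 and Nfil3. Among all genes tested this was so for 30.2% for MPH, 31.8% for BECs and 32.3% for Kupffer-like cells. The median log2 fold change of the 9 genes was 0.11 for MPH, -0.25 for BECs and 0.53 for Kupffer-like cells, beside -0.06, -0.03 and 0.03 over all genes tested.

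The test of the difference between responses was passed by Per1 and by Nfil3. The response of Per1 was larger in MPH than in BECs by 1.87 on the log2 scale (SE 0.31, limma adjusted p = 0.0189), where 1.60% of genes differed. This call was lost without MPH BDL 2, BECs Sham 1 or BECs Sham 2, with a limma adjusted p of at most 0.0570. Against Kupffer-like cells the response of Per1 in MPH was larger by 1.52 (SE 0.34, limma adjusted p = 0.0715), where 0.404% of genes differed. With the number in the sample titles as a block that difference was 1.55 and its limma adjusted p was 0.0302.

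The response of Nfil3 in BECs was below that in Kupffer-like cells by a log2 difference of -2.58 (SE 0.26, limma adjusted p = 0.00433), where 3.50% of genes differed. It was called in all 23 alternatives, with a limma adjusted p of 0.00112 to 0.0277. Between MPH and Kupffer-like cells the log2 difference of Nfil3 was -2.03 (SE 0.59, limma adjusted p = 0.119), and with the block it was -2.04 with a limma adjusted p of 0.0531. The response of Arntl did not pass this test for any pair, with log2 differences of -0.14 between MPH and BECs (SE 0.43), -0.24 between MPH and Kupffer-like cells (SE 0.44) and -0.10 between BECs and Kupffer-like cells (SE 0.17).

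Among the Sham libraries a large share of all genes differed between preparations, and the shares of clock genes called lay near or below it. Sham hepatocytes held less Per1 than Sham BECs, at 4.80 ± 1.497 FPKM against 30.9 ± 1.32 FPKM (SD, n = 3 each). Per2, Nr1d1, Nr1d2 and Dbp were also lower in MPH, with log2 fold changes of -1.62, -2.09, -1.75 and -0.87, and that of Per1 was -2.49. These were 5 of the 9 tested genes at a limma adjusted p of 1.17e-05 to 0.0438, where 58.3% of all genes were called. The Dbp groups overlapped, and its call was made in 10 of 18 alternatives, with a limma adjusted p of 0.00421 to 0.235. The call of Nr1d1 was made in 17 of 19, and was lost without BECs Sham 2 at a limma adjusted p of 0.0532. Arntl, Clock, Cry1 and Nfil3 were not called between MPH and BECs as deposited, and were called as lower in MPH when all libraries were scaled to a common sum.

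Against Sham Kupffer-like cells, hepatocytes held less Per1, with a log2 fold change of -2.31, and more Nfil3, with a log2 fold change of 1.81. Nfil3 averaged 49.9 ± 18.3 FPKM in MPH Sham libraries and 13.0 ± 2.80 FPKM in Kupffer Sham libraries (SD, n = 3 each). Cry1 was higher in MPH as well, by 0.98 on the log2 scale (limma adjusted p = 0.0243), but the value was -0.09 when all libraries were scaled to a common sum, and the call was made in 15 of 20 alternatives. These were 3 of 9 tested genes, where 56.8% of all genes were called. With the block on title numbers Arntl was the only one added, with a log2 fold change of 0.36 and a limma adjusted p of 0.0281. Its direction turned with the scaling: it was -0.68 with a common sum and -0.38 with recovered reads, and both were called (limma adjusted p = 0.00192 and 0.0222).

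BECs held more Per2, Nr1d1, Nr1d2 and Nfil3 than Kupffer-like cells in Sham livers, with log2 fold changes of 1.86, 2.87, 1.51 and 1.89. These were 4 of 9 tested genes, where 43.9% of all genes were called. The call of Nr1d2 was made in 13 of 19 alternatives, and in 4 of the 9 fits that left out 1 library, with a limma adjusted p of up to 0.0738. It was lost without BECs Sham 1 or Sham 2 and without any 1 of the Kupffer Sham libraries. Nr1d1 averaged 51.7 ± 36.1 FPKM in BECs Sham libraries and 5.28 ± 1.84 FPKM in Kupffer Sham libraries (SD, n = 3 each). The lowest BECs library, at 19.9 FPKM, still lay above the highest Kupffer library, at 6.84 FPKM.

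The sums of the deposited FPKM columns differed by up to 3.12-fold, and rescaling moved all genes together in the comparisons with MPH. Scaled to a common sum, the median log2 fold change of all genes was -0.83 for MPH against BECs and -0.91 for MPH against Kupffer-like cells, beside 0.01 and -0.05 as deposited. Nfil3, against that shift, was still called as higher in MPH than in Kupffer-like cells. For BDL against Sham that scaling put the median of all genes at 0.08 in MPH, beside -0.06 as deposited, and at -0.25 in Kupffer-like cells, beside 0.03, and Per1 in MPH and Nfil3 in Kupffer-like cells were still called. It put the median of the response difference at 0.37 for MPH minus Kupffer and at 0.29 for BECs minus Kupffer, beside -0.03 and -0.02 as deposited.

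Set out over all 6 groups, the order of levels differed from gene to gene. Per1 was highest in Kupffer BDL libraries at a mean of 36.6 FPKM and lowest in MPH Sham libraries at 4.80 FPKM, and MPH Sham was the one group that did not overlap its neighbour in the order, MPH BDL at 21.1 FPKM. Nfil3 was highest in Kupffer BDL libraries at a mean of 59.6 FPKM, close to MPH BDL at 59.2 FPKM, and its one gap lay between BECs BDL at 36.9 FPKM and Kupffer Sham at 13.0 FPKM. For Clock, Per2, Per3, Cry1 and Dbp each group overlapped its neighbour. In Arntl the one gap lay between BECs Sham at 6.02 FPKM and Kupffer Sham at 4.64 FPKM. In Nr1d1 the one gap lay between BECs BDL at 27.6 FPKM and Kupffer BDL at 12.3 FPKM.

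MPH BDL 2 and Kupffer BDL 1 carry the same number in their titles, and 6 of the 10 genes held the same place within the group in both. The share of all genes with the same place was not computed, so nothing is read from this count. These 2 libraries were the only ones of the 18 with less Arntl than Dbp. The log2 ratio of Arntl over Dbp was -2.82 in MPH BDL 2 and -1.71 in Kupffer BDL 1, and between 0.19 and 3.67 in the other 16 libraries. Within their groups both libraries were the highest for Per2, Per3 and Dbp and the lowest for Arntl and Clock, while Nfil3 was in the middle in both. The other 4 genes held different places: Per1 was the highest in MPH BDL 2 and the lowest in Kupffer BDL 1, Cry1 was the lowest in MPH BDL 2 and the highest in Kupffer BDL 1, Nr1d1 was the highest and in the middle in that order, and Nr1d2 in the middle and the highest.

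Other genes of the loop were also at their highest level of the MPH libraries in MPH BDL 2. Ciart, an inhibitor of the ARNTL and CLOCK pair, was at 5.42 FPKM there and at most 0.989 FPKM in the other MPH libraries. Tef, a relative of Dbp, was at 18.8 FPKM there and at most 11.5 FPKM in the other MPH libraries. In Kupffer BDL 1 Tef was at 7.32 FPKM, the highest of that preparation, whereas Ciart, at 2.58 FPKM, was not. What the title numbers stand for was not given in the sources used here.

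**Figure D3:**
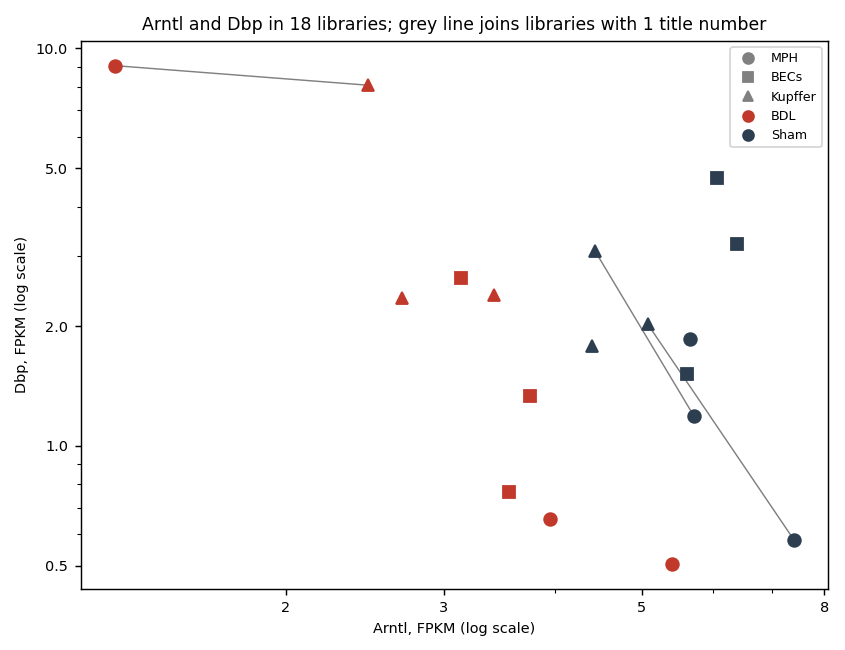
Dbp against Arntl, both in FPKM on log axes, in the 18 libraries, with symbols for the preparation, BDL in red and Sham in dark blue, and grey lines joining libraries that share a title number. MPH BDL 2 and Kupffer BDL 1 lie at the upper left, joined by a line, with 9.05 and 8.08 FPKM of Dbp.

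The title numbers also ran apart between treatments in MPH and Kupffer-like cells, where every BDL library had a lower number than every Sham library. In those preparations whatever the numbers track and the ligation cannot be told apart. No BECs library shared a title number with a library of MPH or Kupffer-like cells. In comparisons with BECs, also among Sham libraries, whatever the numbers track and the preparation cannot be told apart.

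Among themselves the genes were compared after the mean of each group was taken off log2(FPKM + 1), over 18 libraries and 45 pairs. These correlations are a description, since 3 pairs of libraries share a title number and each group mean rests on 3 libraries. The FPKM were taken as deposited, so a difference of scale in a library moves all its genes alike. Arntl and Dbp ran opposite, with a Pearson r of -0.822 and a Spearman rho of -0.680. Without MPH BDL 2 and Kupffer BDL 1 r was -0.314 over 16 libraries, so much of the r of -0.822 may rest on these libraries. Without the 2 libraries farthest from the median of Arntl, MPH BDL 2 and MPH BDL 1, r was -0.595. That value kept the deviations from the full group means. For -0.314 the group means were taken anew on the libraries kept, so the values are not directly comparable.

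Per2 and Per3 ran together, with a Pearson r of 0.788 and a Spearman rho of 0.789, and with r of 0.751 without MPH BDL 2 and Kupffer BDL 1. Nr1d1 and Nr1d2 had an r of 0.693 and a rho of 0.437, and Dbp and Nr1d1 an r of 0.614 and a rho of 0.620, which was 0.795 in r without those libraries. Nfil3 had an r of -0.239 with Dbp and of 0.049 with Arntl. The value with Arntl was 0.580 without MPH BDL 2 and MPH BDL 1, with deviations from the full group means kept. It was -0.252 without MPH BDL 2 and Kupffer BDL 1, with group means taken anew. The libraries left out and the group means both differ between these values, so nothing is read from the change of sign.

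**Figure D4:**
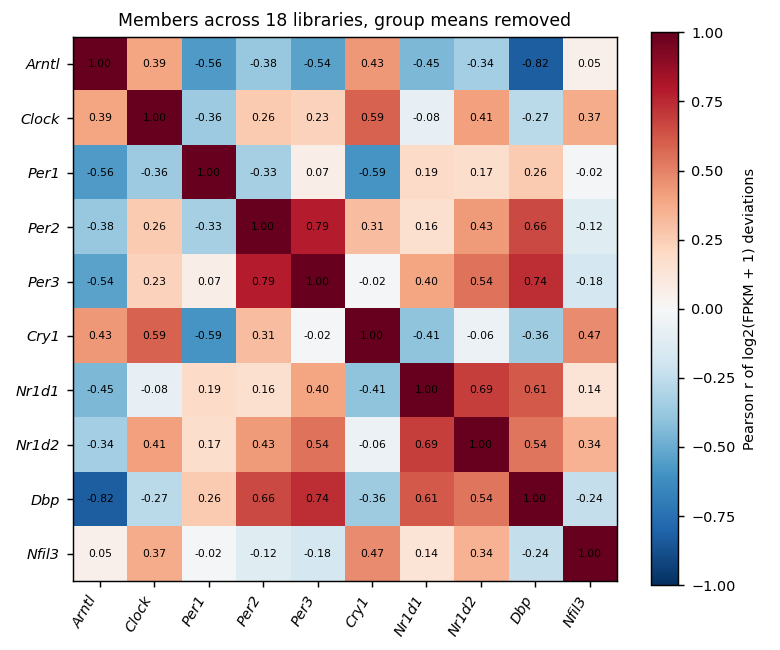
Pearson r of each pair of the 10 genes over 18 libraries after the mean of each group was taken off log2(FPKM + 1), from -1 (blue) to 1 (red). Arntl and Dbp form the darkest blue pair at -0.82, and Per2 and Per3 the darkest red at 0.79.

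The genes most like 3 of the members were sought in the same way among 7686 genes with a mean of at least 5 FPKM. Nearest to Nfil3 were Angptl4, an inhibitor of lipoprotein lipase, with an r of 0.935, Clp1, an RNA kinase, with 0.921, and Lsg1, a ribosome assembly GTPase, with 0.917. Without MPH BDL 2 and Kupffer BDL 1 these were 0.960, 0.935 and 0.924. Nearest to Arntl were Fam114a1 with an r of 0.865, Tubb2a, a tubulin, with 0.858 and Tardbp, an RNA-binding protein, with 0.806. Nearest to Dbp were Pik3c3, a lipid kinase, with 0.821, Lyve1, a hyaluronan receptor of liver endothelium, with 0.815 and Slc52a3, a riboflavin carrier, with 0.814. Without those libraries Tubb2a was at 0.429 with Arntl and Pik3c3 at 0.596 with Dbp. For each member these are the 3 highest of 7686 values. How high the top values would run without any relation was not computed. The FPKM were not rescaled, so a difference of scale in a library is shared by all its genes. Nothing is therefore read from these names.

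Other genes of the clock were counted beside the shares of all genes given above, 1.57% for MPH, 7.66% for BECs and 3.88% for Kupffer-like cells, and nothing is read from lists this short. Of 10 further regulators of the loop, MPH had 7 tested, BECs 8 and Kupffer-like cells 6, and Npas2 in BECs was the only one called. Of 10 kinases and ligases that act on clock proteins, MPH and BECs each had 9 tested and Kupffer-like cells 8, and none was called in limma. Of 10 genes known as outputs of the liver clock none was called in any preparation, and their median log2 fold change was 0.64 for MPH, -0.14 for BECs and 0.76 for Kupffer-like cells. All 9 of the output genes tested in Kupffer-like cells had positive values there, beside 6713 of the 12748 genes tested and all 8 hepatocyte markers, and the list holds genes that hepatocytes express. The part of hepatocyte RNA in those values was not tested. Among them Por, which passes electrons to cytochromes P450, had a log2 fold change of 1.99 in MPH (SE 0.47, limma adjusted p = 0.0810).

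Signals other than the clock also reach Per1 and Nfil3, and genes of those signals were described beside them. Of 10 genes induced by glucocorticoids, Lcn2, which encodes an acute phase lipocalin, rose in all 3 preparations, with log2 fold changes of 5.40 for MPH, 2.01 for BECs and 3.49 for Kupffer-like cells (limma adjusted p = 0.0358, 0.0125 and 0.0341). Tsc22d3, a glucocorticoid-induced leucine zipper gene, and Errfi1, a feedback inhibitor of the EGF receptor, fell in BECs, with log2 fold changes of -0.70 and -1.01 (limma adjusted p = 0.0472 and 0.0421). The median of the 10 genes was 0.73 for MPH, -0.31 for BECs and 1.55 for Kupffer-like cells.

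Immediate early genes respond within minutes to stimuli that include cell isolation. Of 10 such genes, 4 fell in BECs, where 4.70% of all genes tested were called lower. The 4 were Atf3, Jun, Fos and Egr1, with log2 fold changes of -1.10, -1.03, -0.86 and -0.84 in BECs (limma adjusted p of 0.0303 to 0.0474). All 10 had negative values in BECs, with a median of -0.805. None was called in MPH or Kupffer-like cells, where 1.57% and 3.88% of all genes tested were called. Dusp1 stands in this list and in that of the glucocorticoid-induced genes. Per1 in the same BECs libraries was at 32.4 ± 2.00 FPKM in BDL libraries and 30.9 ± 1.32 FPKM in Sham libraries (SD, n = 3 each). In MPH, where Per1 rose, the median of the immediate early genes was 0.39. The part of these signals in the values of Per1 and Nfil3 was not tested.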

How the data were processed

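Polyadenylated RNA of 18 libraries was analysed. The authors deposited 1 table of FPKM per gene, fragment counts scaled to exon length and library size. CASAVA 1.8, fastp, HISAT2 2.0.5, featureCounts 1.5.0-p3, DESeq2 1.20.0 and the builds GRCm38 and mm10 are named in the submitters' processing notes; the annotation release and the use of strand were not given in the sources used here. Stellate cells are not analysed here.

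From the deposited FPKM, log2(FPKM + 1) was fitted with limma 3.58.1 (R 4.3.3) with trend and robust settings, per preparation for BDL against Sham, over 2 preparations for differences between responses and over 9 Sham libraries for preparations. Genes with at least 1 FPKM in at least 3 libraries of the fit were tested, 2-sided, with a threshold of 0.05 on p adjusted by Benjamini-Hochberg over all of them; 9 of the 10 members passed this minimum. Reads were recovered from the FPKM with exon lengths of GENCODE M21; below 200 reads, 97.4% to 98.4% of values came out whole within 0.02. The model was tested on simulated data. Members and gene lists were chosen with earlier results of these data known; the text names all members, at most 4 called genes per list and preparation, and the 3 genes most like Arntl, Dbp and Nfil3. Por, Ciart and Tef were named after their values were seen. Positions are those of GRCm38. Sex was read from Y-linked genes.

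MPH and Kupffer-like libraries share 3 numbers in the titles. Deviations from the group means of the same-numbered libraries correlated at 0.230, 0.337 and 0.305 over 14101 genes. Differently numbered pairs of the same treatment were at -0.338 to 0.215, so the lowest same-numbered value lay only just above them. The numbers were taken to pair the libraries, and a block on the number was fitted with duplicateCorrelation (statmod 1.5.0). Alternatives covered the pseudocount, the minimum, the scaling, the variance model, the libraries fitted and each library left out; sex, recovered reads and the libraries MPH BDL 2 and Kupffer BDL 1 left out together were added after the data were examined.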

Additional observations from a re-analysis of the deposited data

Results flagged for a closer look

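The response to ligation differed between preparations for 2 genes by the test of the difference itself. For Per1 the response in MPH exceeded that in BECs by 1.87 on the log2 scale (limma adjusted p = 0.0189), with all 3 MPH BDL libraries above all MPH Sham libraries and overlapping groups in BECs. For Nfil3 the response in BECs lay below that in Kupffer-like cells, with a log2 difference of -2.58 (limma adjusted p = 0.00433). All 3 BDL libraries were lower than all Sham libraries in BECs and all 3 were higher in Kupffer-like cells.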

How the results depend on the processing

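Of the counts of called members, 79 of 97 alternatives besides the leaving out of each library in turn stayed within 1.5 times the count reported. These include the fits without MPH BDL 2 and Kupffer BDL 1. Except for MPH minus Kupffer, such a fit drops 1 library and repeats the fit without that library. It is therefore counted again among the alternatives of each gene. In MPH the count was 0 with a pseudocount of 0.01, with no minimum, with recovered reads and without MPH BDL 2 and Kupffer BDL 1, and 2 with all 18 libraries in 1 fit. In BECs it was 0 with no minimum, a common sum, all 18 libraries or sex as a covariate. In Kupffer-like cells it was 0 with no minimum or with sex. For the response of MPH minus BECs it was 0 with no minimum or without MPH BDL 2 and Kupffer BDL 1. For MPH minus Kupffer it was 2 with all 18 libraries and 1 with the title number as replicate block. That block changed no other call except that of Arntl between Sham MPH and Kupffer-like cells. No paired analysis was possible for BDL against Sham because those libraries share no number. For Sham MPH against BECs the count was 3 with no minimum and 9 with a common sum, and for Sham MPH against Kupffer 6 with a common sum.

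Leaving out 1 library gave 0 to 2 members in MPH, 0 to 1 in BECs, 0 to 4 in Kupffer-like cells, 0 to 1 for MPH minus BECs, 0 to 1 for MPH minus Kupffer, 1 to 2 for BECs minus Kupffer, 3 to 5 for Sham MPH against BECs, 2 to 4 for Sham MPH against Kupffer and 3 to 6 for Sham BECs against Kupffer. Only BECs without Sham 3 kept the call of Arntl. In Kupffer-like cells 4 members, Arntl, Nr1d1, Nr1d2 and Nfil3, were called without BDL 3.

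Signs turned for values uncalled as deposited, some of them called after rescaling (Arntl, Clock and Cry1 between Sham MPH and BECs, Arntl and Clock between Sham MPH and Kupffer-like cells), and for Cry1 between Sham MPH and Kupffer-like cells, and the cause was not tested. With a common sum the log2 values were Clock 0.070 (BDL against Sham in MPH), Cry1 -0.083 (BDL against Sham in Kupffer), Arntl 0.059, Clock 0.070 (MPH minus BECs). There too the log2 values were Arntl 0.27, Clock 0.35, Per2 0.14, Dbp 0.18 (MPH minus Kupffer), Arntl 0.21, Clock 0.28, Per1 0.032 (BECs minus Kupffer), Arntl -0.94, Clock -0.66, Cry1 -0.82 (Sham MPH against BECs). There too the log2 values were Arntl -0.68, Clock -0.66, Per2 -0.46, Cry1 -0.091, Nr1d1 -0.27 (Sham MPH against Kupffer), Clock -0.0021 (Sham BECs against Kupffer). With recovered reads the log2 values were Clock 0.0085 (BDL against Sham in BECs), Arntl 0.052, Clock 0.15, Per2 0.029, Dbp 0.048 (MPH minus Kupffer), Arntl 0.12, Clock 0.19 (BECs minus Kupffer). There too the log2 values were Arntl -0.60, Clock -0.33, Cry1 -0.46 (Sham MPH against BECs), Arntl -0.38, Clock -0.36, Per2 -0.26 (Sham MPH against Kupffer), Clock -0.035 (Sham BECs against Kupffer). With median ratio scaling the log2 values were Clock 0.0005 (BDL against Sham in Kupffer). With sex as a covariate the log2 values were Clock 0.094 (BDL against Sham in BECs), Clock 0.029 (BECs minus Kupffer), Clock -0.050 (Sham BECs against Kupffer). With the replicate block the log2 values were Dbp 0.14 (MPH minus Kupffer). Without MPH BDL 2 and Kupffer BDL 1 the log2 values were Clock 0.0071, Nr1d1 -0.16 (BDL against Sham in MPH), Clock 0.048 (BDL against Sham in Kupffer), Arntl 0.29, Clock 0.055 (MPH minus BECs). There too the log2 values were Arntl 0.12 (MPH minus Kupffer). Leaving out 1 library spanned Nfil3 -0.43 to 0.50, Clock -0.29 to 0.18, Nr1d1 -0.36 to 0.61 (BDL against Sham in MPH), Clock -0.28 to 0.11, Nr1d2 -0.35 to 0.73 (BDL against Sham in BECs). It also spanned Clock -0.086 to 0.048 (BDL against Sham in Kupffer), Clock -0.24 to 0.23, Cry1 -0.48 to 0.12, Arntl -0.45 to 0.29 (MPH minus BECs). It also spanned Dbp -0.97 to 0.40, Clock -0.28 to 0.19, Per2 -0.34 to 0.26, Arntl -0.55 to 0.19 (MPH minus Kupffer), Clock -0.27 to 0.11, Arntl -0.17 to 0.0022 (BECs minus Kupffer). It also spanned Nfil3 -0.34 to 0.19, Arntl -0.069 to 0.098, Cry1 -0.16 to 0.44 (Sham MPH against BECs), Per2 -0.044 to 0.44 (Sham MPH against Kupffer). It also spanned Clock -0.091 to 0.29 (Sham BECs against Kupffer).

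Depth limits Dbp and Per3 most, and with 3 libraries a group a difference that missed the threshold is not shown to be absent. Genes called with all of the table ranged from 0 to 2272 in Kupffer-like cells over the alternatives.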
